A study of Rattus norvegicus with 10 samples.

Results

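The myostatin, activin and follistatin axis was followed here through 10 genes, taken as every probe set of the deposited table whose gene symbol is Mstn, Gdf11, Inhba, Inhbb, Fst, Fstl1, Fstl3, Acvr1b, Acvr2a or Acvr2b. All 10 symbols were found among the 19091 of the table, on 15 of its 43686 probe sets, 6 genes with 1 probe set and 4 with several. The study compared the left lateral gastrocnemius, a calf muscle, between 2 groups of male Sprague-Dawley rats, an outbred stock, 5 aged animals and 5 young controls, with 1 one-colour expression array per animal. The labels give the aged rats an age of 24 months, and 28 months at necropsy, and the young controls 6 months, and 7 months at necropsy. The labels name no transgene and no treatment, and both groups had free access to food and water and were killed with CO2 and bleeding. By the title of the series, aged rats served to study sarcopenia, which is muscle loss in old age.

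Myostatin is a secreted growth factor of the transforming growth factor beta (TGF-beta) family that muscle fibres make and that holds muscle mass down. Activins, dimers of inhibin beta subunits, act through the same receptors: a ligand binds a type II receptor, which recruits a type I receptor kinase, and the kinase phosphorylates SMAD2 and SMAD3, which enter the nucleus with SMAD4. Follistatin and follistatin-like 3 are secreted proteins that wrap around myostatin and activins and keep them from the receptors, and mice with extra follistatin or without myostatin have enlarged muscles.

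Aged muscle had far more transcript of the antagonist follistatin and less of its ligand myostatin, while a second antagonist, Fstl3, and a type II receptor, Acvr2b, were lower. When the brightest probe set stood for each of the 10 genes, 1 rose, 3 fell and 6 did not pass an adjusted p of 0.05 in limma's moderated test (Benjamini-Hochberg over all probe sets). Among all 19027 named genes 22.5% passed, 13.8% higher and 8.7% lower. By probe set, 5 of the 15 passed, 1 higher and 4 lower, against 15.0% of all probe sets, 8.09% higher and 6.87% lower. The animals of the 2 groups did not overlap in 4 of the 15 probe sets (2 of Mstn, and those of Fst and Fstl3), against 11.7% of all probe sets. The median log2 fold change of the 10 genes was -0.15, and it was -0.01 over all named genes.

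**Figure D1:**
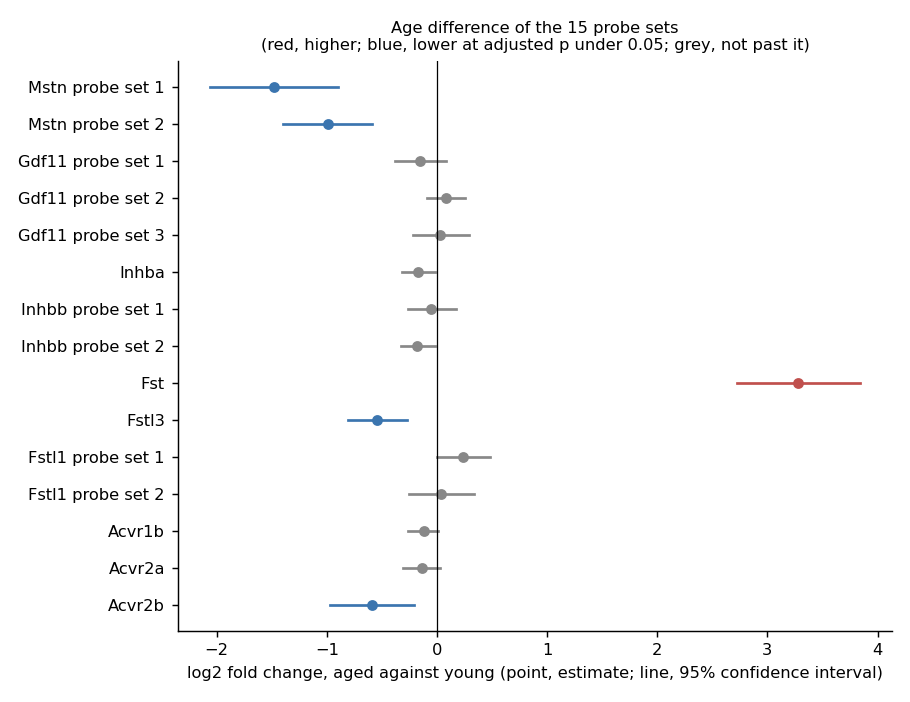
The log2 fold change of aged against young muscle (horizontal axis) for each of the 15 probe sets, with points for limma's estimate and lines for its 95% confidence interval, from 5 arrays per group. Fst stands alone on the right at 3.28, both Mstn probe sets lie on the left at -1.48 and -0.99, and Fstl3 and Acvr2b lie near -0.5.

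Arrays differed little in their overall brightness, with a median intensity between 13.46 and 13.99. Every aged median (13.46 to 13.74) lay below every young one (13.79 to 13.99). The deposited intensities came with no measure of background. Probe sets near or under these medians are called dim here, since their signal was not shown to be above background. For aged replicate 1 the mean Pearson's r across probe sets was 0.99 both with aged and with young arrays, while the other aged arrays had 0.991 to 0.993 with aged and 0.981 to 0.984 with young arrays. In the table with gene symbols, 2 aged columns carry the word replacement in their names, which no label explains, and fits without them are given where they matter.

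Among the ligands, Mstn, which encodes myostatin, fell on both of its probe sets. On the brighter one, listed under RefSeq transcript NM_019151, the intensity was 36.28, 49.96, 34.55, 13.83 and 27.44 in aged replicates 1 to 5 and 94.64, 74.09, 61.61, 98.79 and 95.06 in young replicates 1 to 5. The highest aged animal lay below the lowest young one, and aged replicate 4 was the lowest of all. The geometric means were 29.9 and 83.5, a 2.80-fold lower level in aged muscle (log2 fold change -1.48 ± 0.27 SE, n = 5 per group, 95% confidence interval -2.06 to -0.90, limma adjusted p = 0.00244). The second Mstn probe set read 15.8, 20.99, 15.48, 10.27 and 11.9 in the aged animals and 31.69, 25.61, 21.31, 28.98 and 38.92 in the young ones. It was 1.99-fold lower in aged muscle (log2 fold change -0.99 ± 0.19 SE, limma adjusted p = 0.00325), again without overlap.

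The brighter probe set fell more than the other (-0.49 on the log2 scale, exact permutation p = 0.00794, adjusted p = 0.0476 over 6 pairs of probe sets within genes). Of the aged values of the second probe set, 10.27 and 11.9 lie under the array medians of 13.46 to 13.99, and 15.48 and 15.8 lie near them. There the signal was not shown to be above background, so its fold may understate the fall, and the reason for the difference between the 2 folds was not tested. The fall was smaller without the replacement arrays, which held the 2 lowest aged values of both probe sets: the brighter probe set then fell 2.10-fold (limma adjusted p = 0.00282) and the other 1.66-fold (limma adjusted p = 0.0205).

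Gdf11, the closest relative of myostatin in the family, did not pass on any of its 3 probe sets. Its brightest, close to the array medians, read 15.29, 13.25, 19.02, 17.82 and 12.64 in the aged animals and between 16.32 and 18.32 in the young ones. The aged animals thus fell on both sides of a narrow young range, with an SD of 0.26 against 0.06 on the log2 scale. The log2 fold change was -0.15 ± 0.11 SE (95% confidence interval -0.38 to 0.08, limma adjusted p = 0.394). The other 2 probe sets of Gdf11 were dim in every animal, between 4.64 and 7.4, with log2 fold changes of 0.08 and 0.03, and the sign of the latter turned when single arrays were left out.

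Neither activin subunit gene passed in the main fit, and 1 of them was too dim to follow. Inhba, which encodes the subunit of activin A, read 66.04, 71.88, 74.72, 70.58 and 76.54 in the aged animals and 81.5, 74.17, 85.27, 86.16 and 77.41 in the young ones. Only the upper end of the aged range reached into the young range, and the difference was small (log2 fold change -0.17 ± 0.07 SE, 95% confidence interval -0.32 to -0.02, limma adjusted p = 0.13). With quantile normalization of the arrays it passed (log2 fold change -0.26, limma adjusted p = 0.0222). Inhbb, which encodes the subunit of activin B, was dim on both probe sets. Its brighter probe set ranged from 8.9 to 12.49 in aged and from 9.76 to 13.17 in young animals (log2 fold change -0.05 ± 0.10 SE, limma adjusted p = 0.815). The dimmer one ranged from 6.14 to 7.28 and from 7.05 to 8.02 (log2 fold change -0.18 ± 0.07 SE, limma adjusted p = 0.126), so that Inhbb could not be followed at this signal.

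**Figure D2:**
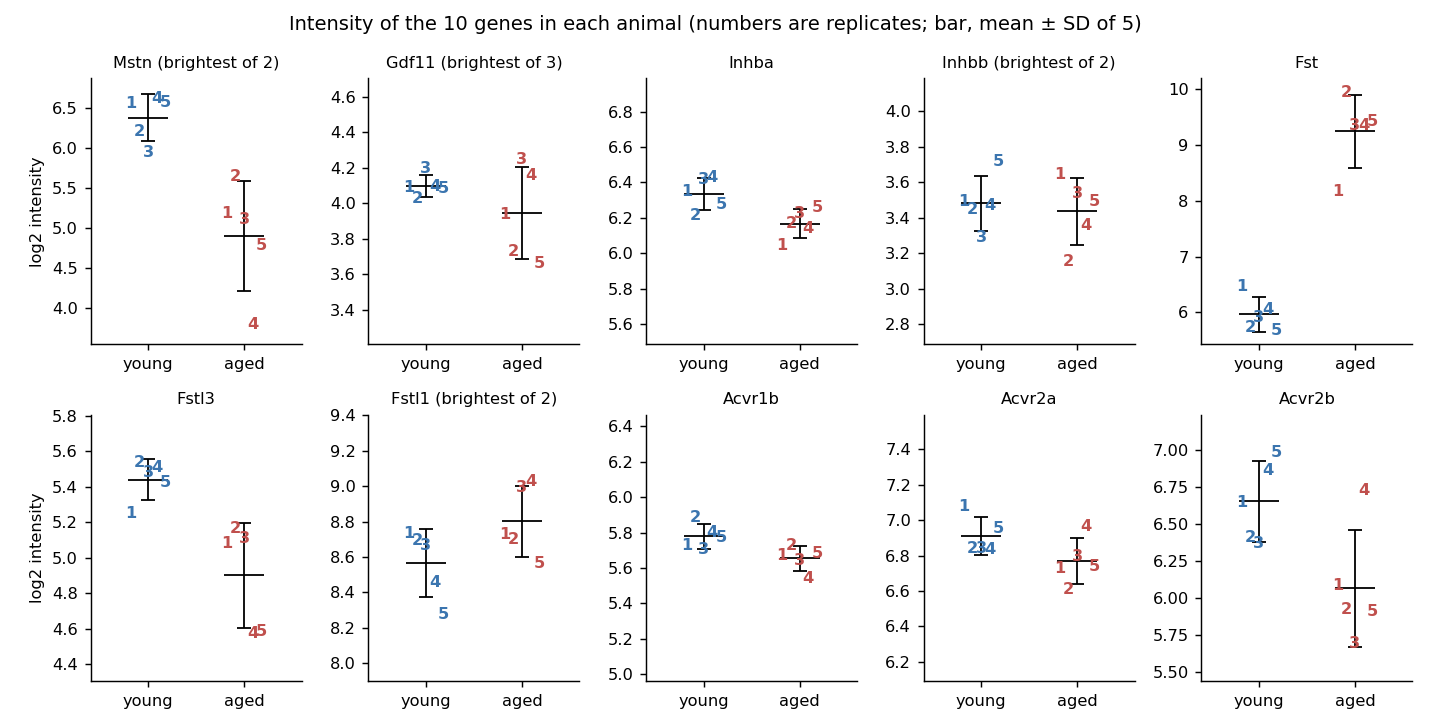
The log2 intensity (vertical axes, each panel with its own range) of the 10 genes in each young (blue) and aged (red) animal, by the brightest probe set of the gene, with numbers for the replicates and bars for the mean ± SD of 5 animals. The aged animals lie clear above the young ones for Fst and clear below them for Mstn and Fstl3, and aged replicate 4 lies among the young animals for Acvr2b.

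Of the antagonists, Fst, which encodes follistatin, carried the largest change of the 10 genes. Its intensity was 287.7, 984.78, 653.66, 650.61 and 687.67 in aged replicates 1 to 5 and 88.13, 52.95, 59.83, 66.37 and 51.17 in young replicates 1 to 5. The groups lay far apart, and the animals nearest the gap were aged replicate 1 and young replicate 1. The geometric means were 608 and 62.4, a ratio of 9.73 with a 95% confidence interval from 6.61 to 14.3 (log2 fold change 3.28 ± 0.26 SE, n = 5 per group, limma adjusted p = 1.68e-05). In the order of p-values Fst stood at place 23 of 43686 probe sets. Without aged replicate 1 the log2 fold change was 3.55, and over the other arrays left out singly it went down to 3.11. The table holds 1 probe set for Fst, so its splice forms, which give follistatin proteins that differ in how they bind the cell surface, could not be told apart.

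Fstl3, the second antagonist of activins and myostatin, went the other way. It read 33.77, 35.81, 34.47, 23.82 and 23.95 in the aged animals and 38.04, 46.37, 44.71, 45.52 and 43 in the young ones. All aged animals were below all young ones, in 2 steps: aged replicates 4 and 5 lay well under the other 3. The level was 1.45-fold lower in aged muscle (log2 fold change -0.54 ± 0.12 SE, n = 5 per group, limma adjusted p = 0.00976). The 2 low values were those of the replacement arrays, at 23.82 and 23.95, and without them the fall was 1.25-fold (log2 fold change -0.32 ± 0.08 SE, limma adjusted p = 0.0313).

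Fstl1, a secreted glycoprotein that shares the follistatin domain and is known mostly for roles outside the trapping of activins, did not pass. Its brighter probe set ranged from 378.25 to 520.47 in aged and from 310.32 to 425.54 in young animals (log2 fold change 0.24 ± 0.11 SE, limma adjusted p = 0.187). The dimmer one ranged from 118.13 to 201.16 and from 124.54 to 177.59 (log2 fold change 0.04 ± 0.14 SE, limma adjusted p = 0.877). The groups overlapped on both, and the difference between the 2 probe sets did not pass over the 6 pairs of probe sets compared within genes (0.19 on the log2 scale, exact permutation p = 0.0476, adjusted p = 0.143).

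Promoters of the 2 follistatin-like genes are shown because the genes share a protein domain and only Fstl3 passed. The windows are the 250 bases before the annotated start in RefSeq, on the rat assembly GRCr8, both on the minus strand, at chr7:10579845-10580094 for Fstl3 and chr11:76454054-76454303 for Fstl1. Capitals mark E-boxes (CANNTG), the sites of myogenic and other helix-loop-helix factors, and CAGA boxes (CAGAC on either strand), the short element that SMAD3 and SMAD4 bind.
Fstl3: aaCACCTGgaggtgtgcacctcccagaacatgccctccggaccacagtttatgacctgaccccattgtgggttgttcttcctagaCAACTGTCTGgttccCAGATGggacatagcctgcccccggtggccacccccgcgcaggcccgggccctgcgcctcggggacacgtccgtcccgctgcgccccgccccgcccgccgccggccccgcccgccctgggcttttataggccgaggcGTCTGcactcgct
Fstl1: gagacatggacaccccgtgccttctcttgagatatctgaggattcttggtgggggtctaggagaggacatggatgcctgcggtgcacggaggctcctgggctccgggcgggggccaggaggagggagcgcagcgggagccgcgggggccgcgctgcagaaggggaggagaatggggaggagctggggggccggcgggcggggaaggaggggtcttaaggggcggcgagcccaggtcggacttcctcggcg
The Fstl3 window held 3 E-boxes and 2 CAGA boxes, one of which overlaps an E-box, and the Fstl1 window held neither motif. Of all 33469 promoter windows of that length 65.5% held an E-box and 42.9% a CAGA box. Over the 8 of 10 genes with a window in the table, 3 held an E-box (Inhba, Fstl3 and Acvr1b) and 1 a CAGA box (Fstl3). Mstn and Fst had no entry. A match of letters is not a bound site, and no binding was measured in this study.

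Receptor transcripts were lower or about level. Acvr2b, the type II receptor with the best known role in myostatin signalling, read 67.89, 60.66, 51.63, 106.05 and 60.03 in the aged animals and 100.31, 85.09, 82.53, 116.39 and 126.99 in the young ones. Of the aged animals 4 lay below all young ones, while aged replicate 4 lay among the young. The level was 1.5-fold lower in aged muscle (log2 fold change -0.59 ± 0.18 SE, n = 5 per group, 95% confidence interval -0.97 to -0.21, limma adjusted p = 0.0392). That call was close to the threshold: it was lost without aged replicate 2 (limma adjusted p = 0.0881), aged replicate 3 (0.0969), aged replicate 5 (0.0894), young replicate 1 (0.0688), young replicate 4 (0.095) or young replicate 5 (0.0998), and with 16 added to every intensity (0.08). Without aged replicate 4 the log2 fold change was -0.75 (limma adjusted p = 0.00239), and without the replacement arrays, one of which held the value of 106.05, it was -0.76 (limma adjusted p = 0.00836).

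The other type II receptor, Acvr2a, read 106.12, 97.58, 111.06, 124.91 and 106.71 in the aged animals and 134.99, 114.69, 114.67, 114.22 and 123.81 in the young ones. Aged replicate 4 was again the highest of the aged animals and lay within the young range, and the gene did not pass (log2 fold change -0.14 ± 0.08 SE, limma adjusted p = 0.274). Acvr1b, the type I receptor known as ALK4, ranged from 46.63 to 53.02 in aged and from 52.2 to 58.99 in young animals. The groups overlapped at that edge, and the difference did not pass (log2 fold change -0.12 ± 0.06 SE, 95% confidence interval -0.26 to 0.01, limma adjusted p = 0.234). The lower end of that interval is a level of 0.833 of that in young muscle.

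**Figure D3:**
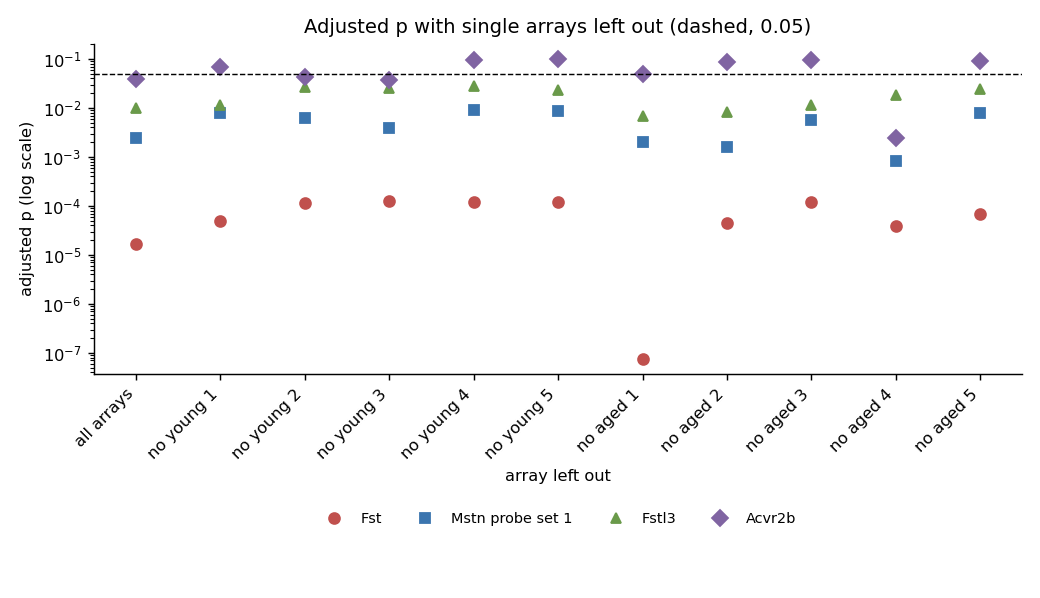
The adjusted p of limma's test (vertical axis, log scale, with the threshold of 0.05 dashed) for the 4 genes that passed, with all 10 arrays and with each array left out in turn (horizontal axis). Fst, Mstn and Fstl3 stay under the line in each case, and Acvr2b crosses it in 6 of 10.

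Genes whose levels moved most like Mstn and Fst from animal to animal were sought over 19026 other named genes, as Pearson's r of log2 intensity over the 10 arrays after each group was centred on its own mean. These r values describe 5 and 5 animals, all arrays shared between the genes, and carry no test. For each gene a single aged array lay far below the other aged ones, and the r values lean on it. It was aged replicate 4 for Mstn (13.83 against 27.44 to 49.96) and aged replicate 1 for Fst (287.7 against 650.61 to 984.78). Closest to Mstn were Rhoq, a small GTPase (r = 0.958), Hbp1, a transcriptional repressor (0.957), Lilrb3 (0.955), Pacrgl (0.954) and Hook1 (0.941). Hook1 was the one of these 5 that passed between the groups (2.37-fold higher in aged muscle, limma adjusted p = 0.000666). Closest to Fst were Fgf13 (r = 0.967), Pgrmc2 (0.963), Tnfrsf10b (0.96) and Tmem117 (0.956). Lilrb3 and Tnfrsf10b were dim. Within the groups Mstn and Fst themselves had an r of 0.106. With Mstn, Fstl3 had an r of 0.662 and Acvr1b of 0.637, while Acvr2b stood at -0.426. Aged replicate 4 was also the lowest aged animal for Fstl3 and Acvr1b and the highest for Acvr2b. How far these r values rest on that array was not tested. Before centring, when the age difference enters too, the 5 genes closest to Fst were Rbm45, Mt1, Ltbp1, Rbmxl1 and S100a4, with r between 0.991 and 0.994, and those closest to Mstn were Nek7, Ehbp1, Rab2a, Gpcpd1 and Mtrr, between 0.96 and 0.974. Ltbp1 encodes a protein that holds latent TGF-beta in the matrix and was 5.87-fold higher in aged muscle (limma adjusted p = 2.36e-05).

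Around these 10 genes, 70 of 73 further genes of the pathway were measured, and 12 rose, 5 fell and 53 did not pass (24.3% passed, near the 22.5% of all named genes, with a median log2 fold change of 0.03). Without aged replicate 1, 19 rose. A group of 14 genes, called extracellular regulators here, held proteases that process the ligands and other regulators outside the cell. It also held the subunit genes Inha, Inhbc and Inhbe and the membrane protein gene Bambi. Of these 14 genes 1 rose and 0 fell. The gene that rose was Wfikkn2, which encodes a secreted binder of myostatin (1.41-fold, limma adjusted p = 0.0475), and its call was lost without any one of 8 arrays (limma adjusted p up to 0.111, without aged replicate 2). Furin, the convertase that cleaves the precursors (log2 fold change -0.10 ± 0.08 SE, limma adjusted p = 0.486), and Wfikkn1, the relative of Wfikkn2 (-0.12 ± 0.10 SE, 0.464), did not pass. Bmp1 did not pass on its brightest probe set (0.15 ± 0.08 SE, limma adjusted p = 0.263), while another of its 3 was called higher.

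Of 12 other receptors and coreceptors measured, 0 rose and 2 fell, both of the bone morphogenetic protein (BMP) branch of the family. Acvr1, a type I receptor of that branch, ranged from 46.91 to 59.87 in aged and from 67.57 to 80.43 in young animals, without overlap (1.33-fold lower, limma adjusted p = 0.00463). Hjv, which encodes the BMP coreceptor hemojuvelin, was likewise lower in every aged animal (5063.29 to 7425.67 against 8735.99 to 9329.14, 1.44-fold, limma adjusted p = 0.00219). Acvr1c, the type I receptor ALK7, did not pass (log2 fold change 0.28 ± 0.14 SE, limma adjusted p = 0.215), though it did without aged replicate 1 (0.0366). Bmpr2 did not pass on its brightest probe set (-0.33 ± 0.16 SE, limma adjusted p = 0.204), while another of its 4 was called lower.

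Among 16 SMAD genes and their regulators, 3 rose, 1 fell and 12 did not pass. Tgif1, a corepressor that binds SMAD2, rose most, from 94.76 to 173.22 in young to 361.73 to 745.19 in aged animals (3.36-fold, limma adjusted p = 0.000102). Nedd4, a ubiquitin ligase, rose 1.63-fold (limma adjusted p = 0.00224). Smad7, the inhibitory SMAD that the pathway induces against itself, fell 1.32-fold without overlap (43.05 to 54.25 against 57.65 to 70.36, limma adjusted p = 0.00497), but its second probe set did not pass. The signal carrier Smad2 was 1.21-fold higher (limma adjusted p = 0.0388), a call lost without any of 7 single arrays (limma adjusted p up to 0.0949, without aged replicate 3) and with quantile normalization (0.162). Smad3 (log2 fold change 0.17 ± 0.07 SE, limma adjusted p = 0.152) and Smad4 (0.21 ± 0.08 SE, 0.116) did not pass, Smad4 reaching 0.0496 without aged replicate 1. Without that replicate 5 genes of this group rose. Zfyve9 did not pass on its brightest probe set (-0.09 ± 0.09 SE, limma adjusted p = 0.534), while another of its 3 was called lower.

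BMP ligands and antagonists were mostly level, with 1 gene of 18 measured higher and 0 lower. That gene, Bmp3, was dim (6.26 to 6.92 in young and 7.19 to 8.82 in aged animals, limma adjusted p = 0.0437), and its call was lost without any single array but aged replicate 2 (limma adjusted p up to 0.0986, without young replicate 2). Bmp4, a BMP made in muscle, was 1.38-fold higher with an adjusted p of 0.0642 in limma's test, which passed without aged replicate 1 (0.0319) or aged replicate 5 (0.0172).

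Genes known to respond to SMAD signalling changed in both directions, with 7 of 14 higher, 3 lower and 4 not past the threshold. Thus 71.4% passed, against 22.5% of all named genes, and the median log2 fold change was 0.28, against -0.01. The list was chosen with earlier results of these data known, so its share is no test of SMAD signalling. Of these 14 genes 4 (Smad6, Smad7, Skil and Bambi) belong to the groups above too, Smad7 being 1 of the 3 that fell. The Id genes, which encode inhibitors of helix-loop-helix factors and are classic BMP targets, were split: Id1 fell 1.58-fold (258.68 to 371.43 in aged against 434.54 to 592.18 in young animals, limma adjusted p = 0.00177), while Id2 rose 3.27-fold (273.29 to 502.11 against 84.87 to 138.46, limma adjusted p = 5.61e-05). Id3 rose 1.62-fold. Id4 rose 1.44-fold on the brighter of its 2 probe sets, while the other was not called higher, and the call was lost without young replicate 3 (limma adjusted p = 0.0521), young replicate 5 (0.0538) or the replacement arrays (0.0775). The inhibitors of cyclin-dependent kinases Cdkn1a, which p53 induces too, and Cdkn2b rose 8.18-fold and 4.39-fold. Fbxo30, a ubiquitin ligase subunit that BMP signalling restrains in mouse muscle, rose 4.75-fold (limma adjusted p = 5.38e-05), and Tgfbi, a matrix protein named for its induction by TGF-beta, rose 1.42-fold.

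**Figure D4:**
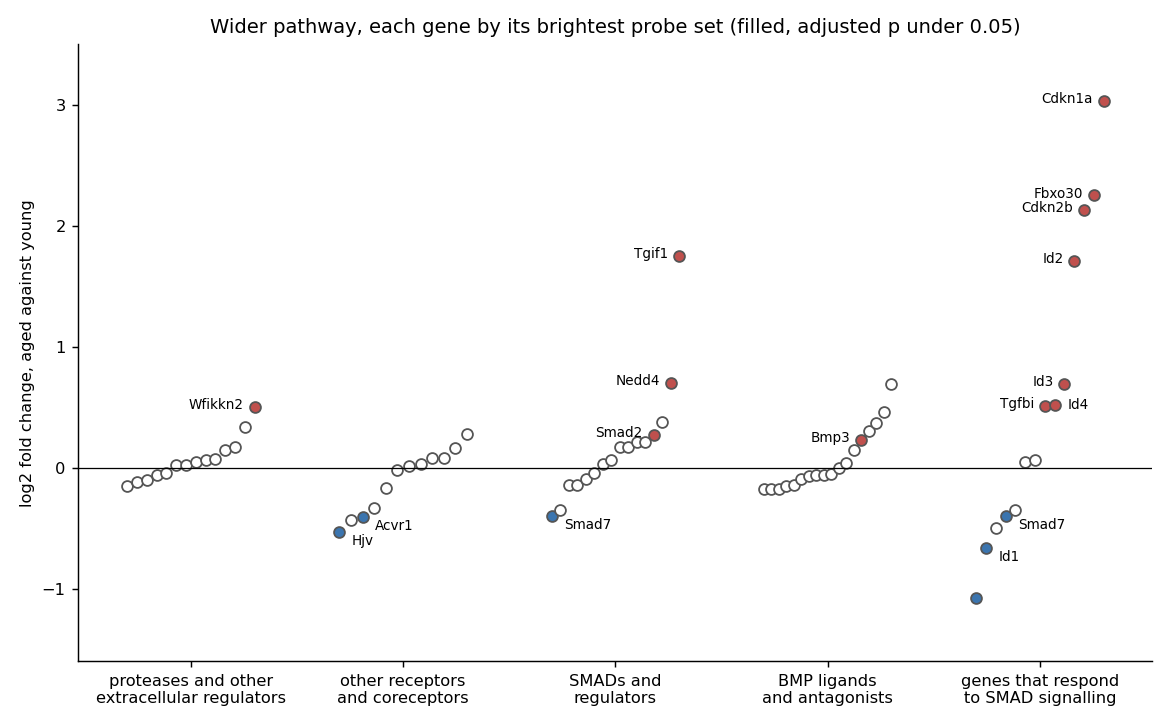
The log2 fold change of aged against young muscle (vertical axis) for every measured gene of the 5 wider groups, each by its brightest probe set, filled where the adjusted p is under 0.05 (red higher, blue lower) and labelled where the text names a filled gene. Most genes lie near 0, and the large changes are those of Tgif1 and of Cdkn1a, Fbxo30, Cdkn2b and Id2.

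Muscle fibre markers were bright in both groups, with a summed intensity of 10 genes from 142700 to 152600 in aged animals and from 144000 to 152400 in young ones. That sum rests largely on Ckm, Tnnt3, Acta1 and Mb, among the brightest of the 10, and whether these were near the upper limit of the array was not tested. Of the 10 fibre markers 1 rose, 2 fell and 7 did not pass: Myh1, a fast myosin heavy chain, fell 1.77-fold (3802.09 to 5929.47 in aged against 6098.21 to 9507.26 in young animals, limma adjusted p = 0.00122), Casq1, a calcium-binding protein of the sarcoplasmic reticulum, fell 1.43-fold without overlap (limma adjusted p = 0.00209), and Mb, myoglobin, rose 1.16-fold (limma adjusted p = 0.0365). Some markers of other cells moved with age, beside 22.5% of all named genes that passed. Of 8 macrophage markers 5 rose (summed intensity 1233 to 2157 in aged against 508.7 to 1131 in young animals). Of 8 fibroblast and fibro-adipogenic markers 3 rose (3630 to 5251 against 2617 to 3745), a sum that rests largely on Col3a1. Col1a1 of that list went the other way (log2 fold change -0.44, limma adjusted p = 0.0571), and its other probe set was called lower. Of 7 satellite cell markers 1 rose, Myf5 by 4.25-fold, and 1 fell, Sdc4 by 1.32-fold (summed intensity 887.9 to 1054 against 964.8 to 1211). That sum rests largely on Sdc4. The mean log2 difference of the 7 markers from their young means went the other way, -0.02 to 0.44 in aged against -0.07 to 0.05 in young animals. That mean rests largely on Myf5 (log2 fold change 2.09), whose young values of 13.86 to 15.8 lay near the array medians. Vcam1 (0.62), Chrdl2 (0.04) and Calcr (0.02) were above 0 and did not pass, while Pax7 (-0.16), Cdh15 (-0.39) and Sdc4 (-0.4) were below 0. Of 6 fat cell markers 1 rose, of 5 smooth muscle and pericyte markers 1 fell, and of 6 endothelial and 7 Schwann cell and nerve markers 0 passed. The part of these cells in the values of Fst, Mstn or the other genes was not tested. In a whole muscle sample fewer cells of a type and less RNA per cell cannot be told apart.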

How the data were processed

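Gastrocnemius RNA of 5 aged and 5 young rats, separate animals, was hybridised to 1 array each. The deposited values are intensities on a linear scale, normalized by the authors with RMA per the submitters' processing notes, which give no version or settings. RMA evens out the arrays and shrinks differences of dim probe sets. Array design and build are not given in the sources used here. A table with gene symbols (43686 probe sets) gave the main fit and the alternative fits other than those named next. The series' value table (43685 of them, the same 10 columns) gave values per replicate, the exact permutation tests, the replicate block and fits without single arrays.

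Log2 intensities were fitted with limma 3.58.1 in R 4.3.3 (lmFit, eBayes, two-sided, age group as the only term), with Benjamini-Hochberg adjustment over all probe sets, a threshold of 0.05, no pseudocount and no filter. Folds are ratios of geometric means. Symbols of the wider genes were updated through RefSeq (GRCr8), and a gene with several probe sets was taken by the brightest. Probe sets of 1 gene were compared by exact permutation over all 252 splits (scipy 1.17.1). The fit was checked on simulated data. Named were all 10 genes, the listed pathway genes that passed, a few needed to say what did not (these and the named markers were chosen after their values were seen), and the genes among the 5 with the highest r to Mstn and to Fst. Of the genes this rule names, 2 are not reported here. The number of arrays limits the precision. The 10 genes, the lists and the tests were chosen with earlier results of these data known.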

Additional observations from a re-analysis of the deposited data

Results flagged for a closer look

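Cdkn1a in aged replicate 1 lay far below the other aged animals, at an intensity of 2041.58 against 5202.64 to 6596.98, and above all young animals. On the log2 scale it was the single outlier by Dixon's test among 64 groups of 5 animals examined for the 15 probe sets and the pathway genes that passed. Chance flags about 1 group in 20, so 1 flag among 64 groups is no more than chance would give.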

How the results depend on the processing

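Fst, both Mstn probe sets and Fstl3 kept their direction and their call in each alternative fit. These fits were quantile normalization, median centring, 16 added before the log, dim probe sets left out, an intensity trend and array weights. The others were the series' value table, each array left out, the replacement arrays left out and the replicate block. Over these, the log2 fold change of Fst went from 2.99 to 3.55, that of the brighter Mstn probe set from -1.67 to -1.07 and that of Fstl3 from -0.61 to -0.32. Signs of small differences turned: leaving out single arrays gave -0.05 to 0.11 for the dimmest Gdf11 probe set, -0.10 to 0.02 for the brighter Inhbb and -0.04 to 0.16 for the dimmer Fstl1 probe set, and quantile normalization gave -0.05 for the last. The exact test, unadjusted, put Inhba (p = 0.0238), the dimmer Inhbb probe set (p = 0.0159) and Acvr1b (p = 0.0159) under 0.05. For Fst, both Mstn probe sets and Fstl3 the exact permutation p, unadjusted, was 0.00794, the smallest that test can give. Groups without overlap always reach that value, so the exact test adds nothing to the lack of overlap and gives no adjusted call.

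Without the replacement arrays 1846 probe sets were lower in aged muscle rather than 3001, with fewer arrays in the fit. Quantile normalization gave 3057 higher and 3334 lower, and median centring 3973 and 2330, against 3535 and 3001. Quantile normalization gave 8 wider pathway genes lower, rather than 5, among them 2 of the SMAD group and 1 of the BMP group, and 0 extracellular regulators higher. With 16 added, 0 extracellular regulators and 0 BMP ligands or antagonists were higher, with median centring 2 BMP genes were higher, and without dim probe sets 2 of the SMAD group were lower. Leaving out single arrays gave 8 to 19 wider genes higher, with 0 to 2 extracellular regulators, 0 to 1 receptors, 2 to 5 of the SMAD group and 0 to 4 of the BMP group, and 1 to 2 of the SMAD group lower. The cause of these shifts was not tested.

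Replicate numbers are shared by the groups but not tied to animals: deviations of same-numbered arrays correlated between -0.117 and 0.027, and 1 of 5 aged arrays correlated best with its own number. With the replicate block 1 probe set of the 15 was higher and 4 were lower, as without it, while 10 rather than 12 wider genes were higher, with the calls of Id4 (adjusted p = 0.0541), Smad2 (0.0703) and Bmp3 (0.066) lost and that of Bmp4 (0.0237) gained, and over all probe sets 3200 were higher and 2351 lower. Arrays without a detection measure leave Inhbb and 2 Gdf11 probe sets unresolved.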
